A study of Schizosaccharomyces pombe with 16 samples.

Results

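The flocculin genes are a family of cell-surface genes of fission yeast, Schizosaccharomyces pombe, and 7 of them are described: gsf2 (SPCC1742.01), pfl2 (SPAPB15E9.01c), pfl3 (SPBC947.04), pfl4 (SPCC188.09c), pfl5 (SPBC1289.15), pfl7 (SPBC359.04c) and pfl9 (SPAC186.01). They were listed by systematic ID, with earlier results of these data known. All 7, out of 5195 genes with a value, were on the array, each with 1 exon probe that had a value on every one of the 16 arrays, and all 7 were among the 5163 genes tested. For 5 of them the array's ID was the current locus tag, while gsf2 was matched through the older ID SPCPB16A4.07c and pfl2 through SPAPB18E9.06c.

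The study compared strains carrying changed versions of Rpb1, the largest subunit of RNA polymerase II, with a strain labelled WT on 2-colour splicing arrays. In all 4 mutants the carboxy-terminal domain (CTD), the repeated tail of Rpb1, was labelled as 18 'rump' repeats followed by 14 altered repeats. In rpb1-S7A the serine at position 7 of the altered repeats was alanine (4 arrays), in rpb1-S2A the serine at position 2 was alanine (4 arrays), in rpb1-S2A/S7A both were alanine (5 arrays), and in rpb1-S7E the position 7 serine was glutamate (3 arrays), a residue often used to imitate a phosphorylated serine. The sources do not give the number of CTD repeats in the WT strain, so repeat number and the substitution cannot be told apart in a comparison with WT. Cultures were inoculated at an optical density near 0.1 in 25 mL of rich YES medium and collected in mid-log phase near 0.5, and replicates were grown separately. Each value is taken as the log2 ratio of mutant over WT RNA on 1 array, so 0 means equal signal. The base and the direction of the ratio are likely rather than stated in the sources, and if the ratio ran the other way, every higher and lower below, and every rank from the highest or lowest, would swap.

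Flocculins are large glycoproteins anchored at the yeast surface that bind sugars on neighbouring cells and hold cells together in clumps. In fission yeast, gsf2 encodes the main galactose-binding flocculin, and the pfl genes encode related adhesins that can cause flocculation or filament-like growth when strongly expressed. In ordinary laboratory culture the family is held low, and it is controlled by activating transcription factors such as Mbx2 and Cbf12 and by repressors, the kinase module of Mediator and the LAMMER kinase Lkh1. The probes measured RNA only, and clumping of the cells was not measured.

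The 7 genes did not move as a block. The pfl9 RNA was 1.95-fold to 2.64-fold WT in the 4 mutants, the pfl7 RNA fell to between 0.311 and 0.439 of WT, and gsf2 rose with the serine 2 substitution alone or combined. The pfl3 RNA fell in S7A and S7E and rose in S2A, and pfl2, pfl4 and pfl5 passed the test against WT in no mutant. Passing means a limma Benjamini-Hochberg adjusted p under 0.05 over the 5163 genes, from 1 two-sided fit to all 16 arrays with 4 mutant means and a dye term, and estimates below are from that fit with their standard errors (SE).

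**Figure D1:**
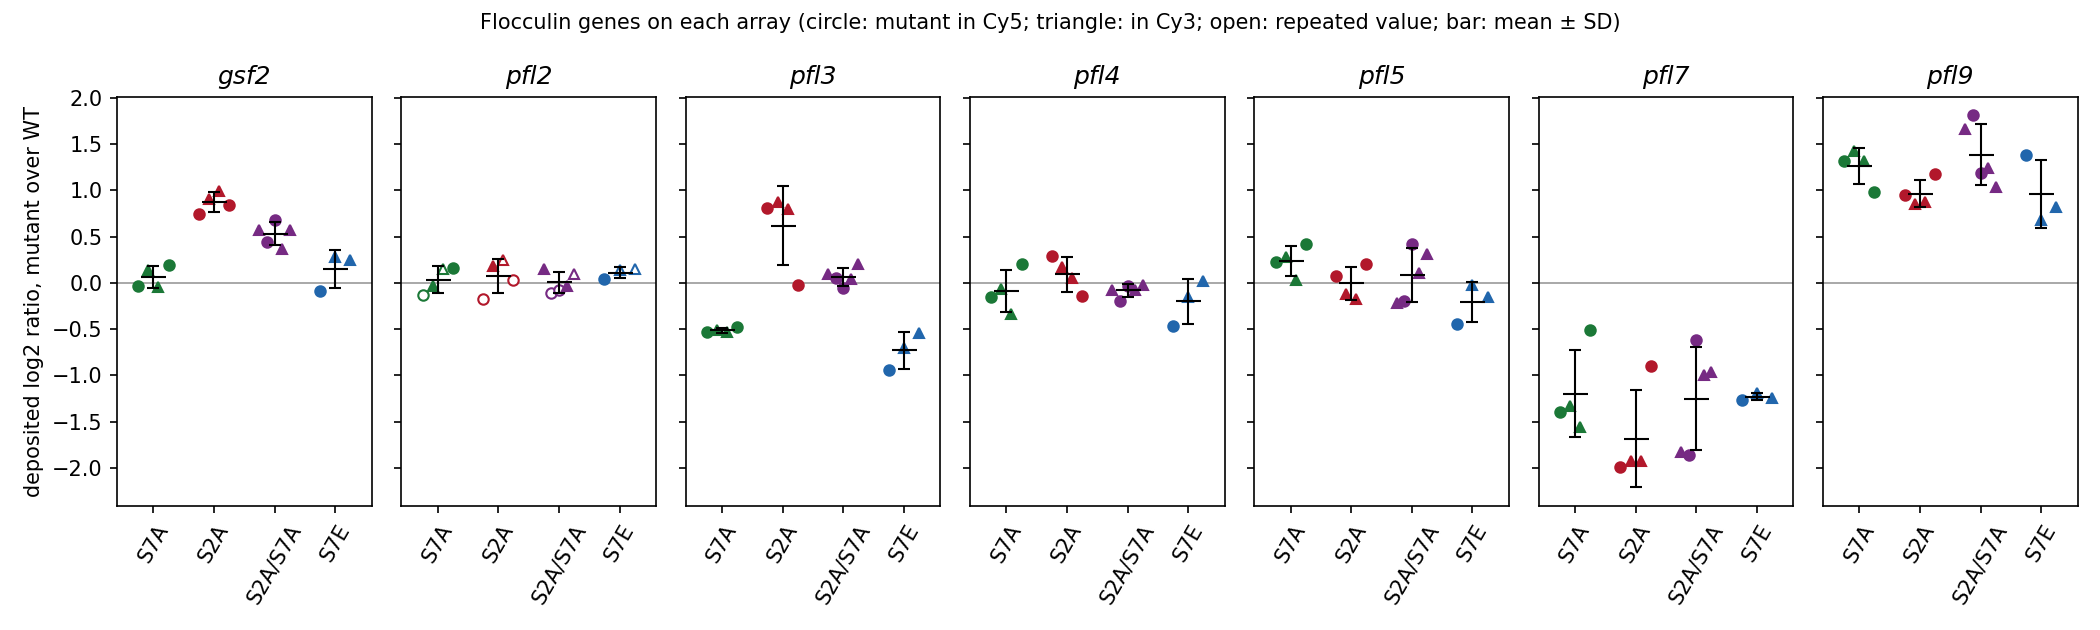
Log2 ratio of mutant over WT (vertical axis) of each flocculin gene on each array, 1 panel per gene, with 1 point per array grouped by mutant and a bar for the mean ± SD of the group. Circles have the mutant in Cy5, triangles in Cy3, and open points are repeated values, which occur only for pfl2. All 16 points of pfl9 lie above 0, between 0.68 and 1.81, all 16 of pfl7 lie below 0, between -1.99 and -0.51, and the points of gsf2 and pfl3 differ by mutant.

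In the S7A mutant 1 member was called higher and 2 lower, where 18.0% of all tested genes were called higher and 16.6% lower. In S2A 3 members were called higher and 1 lower, against 31.2% and 27.1% of all genes. In S2A/S7A 2 were called higher and 1 lower, against 35.1% and 27.8%. In S7E 1 was called higher and 2 lower, against 33.5% and 27.6%. With so many genes called in each mutant, these counts say little about the family as a whole. The median estimate of the 7 members was 0.04 in S7A, 0.09 in S2A, 0.05 in S2A/S7A and -0.20 in S7E, and the medians of all tested genes were 0.0027, 0.025, 0.043 and 0.038. The calls of 13 member and mutant pairs, all of them for gsf2, pfl3, pfl7 or pfl9, carry the results that follow.

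Of the arrays, 3 agreed less with others of their mutant. The mean correlation with arrays of the same mutant, across the 4829 genes with a value on all arrays, was 0.655 for S7E replicate 1, 0.660 for S7A replicate 4 and 0.689 for S2A replicate 4, and 0.791 to 0.911 for the other 13. These 3 arrays had the mutant RNA in Cy5, as did 4 others. They were picked after the data were seen. Without them S7E keeps 2 arrays, both with the mutant in Cy3, so its dye term comes from the other mutants. Where leaving them out changed a call of a member described here, the value without them is given beside it. For the neighbours, regulators, other adhesin genes and cell wall genes named below it is not given. All 13 calls against WT were also made with these 3 arrays left out.

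The gene gsf2, which encodes the dominant flocculin of the species, was 1.83-fold WT in S2A and 1.44-fold in S2A/S7A. It read 0.74, 0.91, 1.00 and 0.84 on S2A replicates 1 to 4, and 0.58, 0.45, 0.68, 0.37 and 0.58 on S2A/S7A replicates 1 to 5. On S7A it read -0.04, 0.14, -0.04 and 0.19, and on S7E -0.09, 0.28 and 0.25. Every S2A value lay above every S2A/S7A value, and every S2A/S7A value lay above all 7 values of S7A and S7E, whose ranges overlapped. The estimates were 0.87 ± 0.066 (SE, adjusted p = 4.39e-08) in S2A and 0.52 ± 0.060 (adjusted p = 2.48e-06) in S2A/S7A by limma. They ranked 155 and 408 from the highest of the 5163 genes. In S7A the estimate was 0.06 ± 0.066 (adjusted p = 0.513) and in S7E 0.14 ± 0.077 (adjusted p = 0.144) by limma. The S7E value was 0.24 (adjusted p = 0.0218) with the 3 arrays that stood apart left out, past the threshold.

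The mutants also differed from each other in gsf2. S2A exceeded S7A by 0.81 ± 0.094 (limma adjusted p = 8.14e-06) and S2A/S7A exceeded S7A by 0.46 ± 0.089 (adjusted p = 8.01e-04). The double mutant was lower than S2A by an estimate of -0.35 ± 0.089 (limma adjusted p = 0.0112), so adding the S7A substitution to S2A went with less gsf2 RNA. S7E was lower than S2A, at -0.74 ± 0.10 (limma adjusted p = 5.35e-05), and lower than S2A/S7A, at -0.39 ± 0.097 (adjusted p = 0.00596). That last difference rested partly on 1 array: without S7E replicate 1 it was -0.27 (limma adjusted p = 0.0521).

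The pfl3 gene, an adhesin gene in the interior of chromosome II, moved in opposite directions in the single mutants. It read -0.53, -0.51, -0.53 and -0.47 on the S7A arrays, a spread of 0.027 (SD, n = 4), and -0.94, -0.71 and -0.54 on the S7E arrays. On S2A it read 0.81, 0.87, 0.80 and -0.02. On S2A/S7A it read 0.10, 0.05, -0.06, 0.04 and 0.21. The S7A and S7E ranges did not overlap each other, the S2A/S7A range or the S2A range, while S2A replicate 4 fell inside the S2A/S7A range and the other 3 S2A arrays lay well above it.

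By limma pfl3 was 0.702-fold WT in S7A (-0.51 ± 0.098, adjusted p = 0.00105) and 0.590-fold in S7E (-0.76 ± 0.11, adjusted p = 4.91e-05). It was 1.53-fold WT in S2A (0.62 ± 0.098, adjusted p = 7.74e-05), and 0.82 (adjusted p = 4.59e-09) with the 3 arrays that stood apart left out. In S2A/S7A the estimate was 0.05 ± 0.088 (limma adjusted p = 0.663), close to the sum of the single-mutant estimates, 0.10. S2A exceeded S7A by 1.13 ± 0.14, a 2.18-fold difference (limma adjusted p = 1.46e-05). S2A/S7A lay between them, below S2A by an estimate of -0.57 ± 0.13 (limma adjusted p = 0.00640) and above S7A by 0.56 ± 0.13 (adjusted p = 0.00338). S7E lay below S2A at -1.38 ± 0.15 (limma adjusted p = 5.79e-06) and below S2A/S7A at -0.81 ± 0.14 (adjusted p = 5.28e-04). Although the S7A and S7E ranges did not overlap, their estimates differed by an amount that missed the threshold (-0.25, limma adjusted p = 0.193). In 26 of 27 alternative fits it also missed the threshold. The exception was the fit without S2A replicate 4, at -0.23 (limma adjusted p = 0.0200). With the 3 arrays that stood apart left out, S2A replicate 4 among them, the difference was -0.12 (adjusted p = 0.207).

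The pfl9 gene, an adhesin gene with only 16 measured genes between it and the end of chromosome I, was higher in every mutant. On S7A it read 1.32, 1.43, 1.32 and 0.98, and on S2A 0.95, 0.86, 0.88 and 1.17. On S2A/S7A it read 1.66, 1.81, 1.19, 1.24 and 1.04, and on S7E 1.38, 0.68 and 0.82. All 16 values were above 0 and the ranges of the 4 mutants overlapped. Within S2A/S7A, replicates 1 and 2 lay above the other 3.

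The pfl9 RNA was 2.40-fold WT in S7A (1.26 ± 0.12, limma adjusted p = 1.67e-06), 1.95-fold in S2A (0.96 ± 0.12, adjusted p = 7.39e-06), 2.64-fold in S2A/S7A (1.40 ± 0.11, adjusted p = 3.53e-08) and 1.98-fold in S7E (0.99 ± 0.14, adjusted p = 2.89e-05). In S7A it ranked 21 from the highest of all genes. In the order S2A/S7A, S7A, S7E, S2A, no pair of mutants differed past the threshold. The nearest to it were S2A/S7A over S2A, 0.44 ± 0.16 (limma adjusted p = 0.0642), and S7E over S2A/S7A, -0.41 ± 0.18 (adjusted p = 0.0790). With the 3 arrays that stood apart left out both passed, at 0.48 (limma adjusted p = 0.0128) and -0.59 (adjusted p = 0.00938). In that fit S7A also exceeded S2A and S7E, the differences being -0.46 for S2A minus S7A (limma adjusted p = 0.0219) and -0.57 for S7E minus S7A (adjusted p = 0.0164). Of all genes tested, 6.08% were called higher in all 4 mutants. Each of the 4 ratios has WT as its denominator, so a low pfl9 level in the WT RNA and a high level in each mutant cannot be told apart.

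The pfl7 gene, an adhesin gene 34 measured genes from the end of chromosome II, was lower in every mutant. On S7A it read -1.39, -1.33, -1.56 and -0.51, and on S2A -1.99, -1.92, -1.93 and -0.90. On S2A/S7A it read -1.82, -1.86, -0.61, -1.0 and -0.96, and on S7E -1.26, -1.19 and -1.24. All 16 values were below 0. Replicate 4 of S7A and of S2A showed the smallest decrease of its group, and S2A/S7A replicates 1 and 2 lay apart from its other 3 arrays, as they did for pfl9. The spread within S7E was 0.036 (SD, n = 3), and within the other groups it was 0.47 (n = 4) for S7A, 0.52 (n = 4) for S2A and 0.56 (n = 5) for S2A/S7A.

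By limma pfl7 was 0.311-fold WT in S2A (-1.69 ± 0.21, adjusted p = 6.49e-06), 0.427-fold in S2A/S7A (-1.23 ± 0.19, adjusted p = 4.35e-05), 0.436-fold in S7A (-1.20 ± 0.21, adjusted p = 4.59e-04) and 0.439-fold in S7E (-1.19 ± 0.24, adjusted p = 6.75e-04). It was the gene of rank 20 from the lowest in both S7A and S2A, and of rank 28 in S2A/S7A and 53 in S7E. No pair of mutants differed past the threshold in pfl7. S2A was lower than S7A by an estimate of -0.49 ± 0.29 (limma adjusted p = 0.200), and S2A/S7A was above S2A by 0.46 ± 0.28 (adjusted p = 0.258). The second of these was 0.70 (limma adjusted p = 0.0255) with the 3 arrays that stood apart left out. Of all genes tested, 4.9% were called lower in all 4 mutants. A high pfl7 level in the WT RNA and a low level in each mutant cannot be told apart, for the same reason as for pfl9.

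The remaining members, all adhesin-like genes of the pfl series, passed the test against WT in no mutant. The pfl5 gene, 31 measured genes from the end of chromosome II, read 0.22, 0.28, 0.03 and 0.42 on S7A and -0.45, -0.02 and -0.15 on S7E, ranges that did not overlap. On S2A it read 0.07, -0.12, -0.18 and 0.20, and on S2A/S7A -0.21, -0.20, 0.42, 0.11 and 0.31, so both groups straddled 0. In S2A/S7A replicates 1 and 2 lay apart from the others, as they did for pfl7 and pfl9. Against WT the limma estimate was 0.24 ± 0.10 (adjusted p = 0.0919) in S7A, -0.01 (adjusted p = 0.961) in S2A, 0.09 (adjusted p = 0.411) in S2A/S7A and -0.20 ± 0.12 (adjusted p = 0.176) in S7E. S7E was below S7A at -0.43 ± 0.16 (limma adjusted p = 0.0400), a call lost without any 1 of S7A replicates 1, 2 and 4 or S7E replicates 1 and 3. Its value was -0.25 (limma adjusted p = 0.272) without S7E replicate 1 and -0.23 (adjusted p = 0.265) with the 3 arrays that stood apart left out. Without those 3 arrays the S7E estimate against WT was -0.039.

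The pfl4 gene of chromosome III read -0.15, -0.07, -0.34 and 0.20 on S7A and 0.29, 0.17, 0.06 and -0.15 on S2A. It read -0.08, -0.19, -0.04, -0.08 and -0.02 on S2A/S7A and -0.47, -0.15 and 0.02 on S7E. The 4 ranges overlapped, and the limma estimate largest in size, in S7E, was -0.21 ± 0.10 (adjusted p = 0.0919). With the 3 arrays that stood apart left out, pfl4 passed in S7A at -0.18 (limma adjusted p = 0.0245) and in S2A at 0.18 (adjusted p = 0.0177), S2A exceeded S7A by 0.36 (adjusted p = 0.00257), S2A/S7A was below S2A at -0.26 (adjusted p = 0.0148), and the S7E estimate was -0.051.

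The pfl2 gene of chromosome I read -0.13, -0.03, 0.15 and 0.16 on S7A and -0.17, 0.18, 0.25 and 0.03 on S2A. It read 0.15, -0.11, -0.07, -0.03 and 0.09 on S2A/S7A and 0.04, 0.14 and 0.15 on S7E. These values lie near 0, but on 10 of the 16 arrays the pfl2 value was identical to one held by at least 10 probes of that array, which was so for no other member. Only 32 of the 5195 genes held such a repeated value on at least 10 arrays. No source used here says how the repeated values arose, so pfl2 near 0 is not evidence of an equal level. With repeated values set to missing pfl2 had too few values to be tested.

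The mutants were also compared over the whole family. S2A against S7A gave 2 members higher and none lower (gsf2 and pfl3), where 42.0% of all genes were called in either direction. S2A/S7A against S7A gave the same 2 higher, against 41.6% of all genes, and S2A/S7A against S2A gave these 2 lower, against 23.3%. S7E against S2A and against S2A/S7A gave gsf2 and pfl3 lower, where 35.5% and 36.0% of all genes were called. S7E against S7A gave pfl5 lower, where 43.0% were called. These contrasts share arrays, so they are not independent of each other.

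The double mutant allowed a test of whether the single substitutions add on the log2 scale. In this contrast 3 members departed from the sum of the S2A and S7A estimates, where 26.4% of all tested genes did. For pfl7 the sum was -2.88 and the double mutant stood at -1.23, a departure of 1.66 ± 0.35 (limma adjusted p = 0.00304). For pfl9 the sum was 2.23 and the double mutant stood at 1.40, a departure of -0.82 ± 0.20 (limma adjusted p = 0.00834). For gsf2 the sum was 0.93 and the double mutant stood at 0.52, a departure of -0.41 ± 0.11 (limma adjusted p = 0.0143). In all 3 the double mutant was closer to WT than the sum. For pfl3 the departure was -0.06 ± 0.16 (limma adjusted p = 0.832), and -0.22 (adjusted p = 0.0347) with the 3 arrays that stood apart left out. WT enters the sum once more than the double mutant, so an unusual WT level of pfl7 or pfl9 would enter this contrast with the opposite sign, and that and a true departure cannot be told apart. Without the same 3 arrays the departures were 2.12 for pfl7, -0.89 for pfl9 and -0.36 for gsf2.

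**Figure D2:**
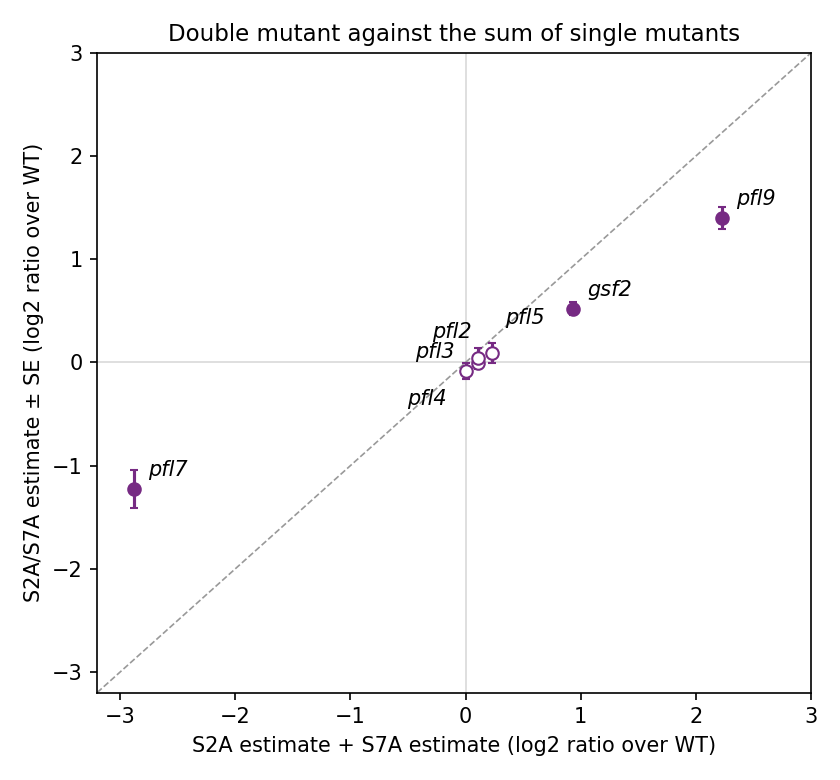
Log2 ratio estimated in the S2A/S7A double mutant (vertical axis, bars ± SE) against the sum of the S2A and S7A single-mutant estimates (horizontal axis), 1 point per flocculin gene, filled where the departure from the sum was called. The dashed line is where the double mutant equals the sum: pfl7 (-2.88, -1.23) lies above it, pfl9 (2.23, 1.40) and gsf2 (0.93, 0.52) lie below it, and pfl3 (0.10, 0.05) lies near it.

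The genes beside each member were examined because 3 members lie near chromosome ends. Around pfl7 the genes on either side were also lower. The nearest measured gene on one side, aat1, an amino acid transporter gene, was lower in all 4 mutants, at -0.64 in S7A, -1.35 in S2A, -1.22 in S2A/S7A and -1.66 in S7E. On the other side abc3, which encodes a vacuolar transporter, was also called lower in all 4, at -2.59, -0.93, -0.66 and -2.52 in the same order. Of the 10 nearest measured genes, 5 on each side, 4 were called lower and 2 higher in S7A, 9 lower and 1 higher in S2A, 8 lower and 2 higher in S2A/S7A, and 6 lower and 1 higher in S7E. Of all genes 16.6%, 27.1%, 27.8% and 27.6% were called lower in these mutants. The medians of the 10 were -0.14, -0.76, -0.49 and -1.25. Of these neighbours, SPBPB10D8.05c, SPBPB10D8.06c and SPBPB10D8.07c, had nearly equal values in each mutant, so they may not be separate measurements. The change was not uniform: mug14, the next measured gene beyond abc3, was called higher in S7A (0.38), S2A/S7A (0.38) and S7E (1.31) and lower in S2A (-0.41).

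Around pfl9 the picture differed. Its nearest measured genes, SPAC869.01 and SPAC186.02c, were called higher in all 4 mutants, at 0.41, 0.41, 0.36 and 0.32 and at 0.75, 0.20, 0.45 and 0.37 for S7A, S2A, S2A/S7A and S7E, all below the pfl9 estimate of the same mutant. Of the 10 nearest genes, 2 were higher and 2 lower in S7A, 7 higher and 2 lower in S2A, 7 higher and 1 lower in S2A/S7A, and 4 higher and 4 lower in S7E, where 18.0%, 31.2%, 35.1% and 33.5% of all genes were called higher. The medians of the 10 neighbours were 0.064 in S7A, where pfl9 rose 2.40-fold, 0.35 in S2A, 0.41 in S2A/S7A and 0.036 in S7E. Some neighbours lay above the pfl9 estimate. In S2A, where pfl9 stood at 0.96, these were gdt1 (1.39), yhb1 (1.18) and SPAC186.06 (1.11). In S2A/S7A, where pfl9 stood at 1.40, they were SPAC186.06 (1.78) and yhb1 (1.53).

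The pfl5 gene was called in no mutant, and several of its neighbours were called higher. Of its 10 nearest measured genes, 3 were higher and none lower in S7A, 6 and none in S2A, 9 and none in S2A/S7A, and 7 higher and 2 lower in S7E, against the same shares of all genes, which the S7A count is near. The retrotransposon Tf2-11, next to it, was called higher in S2A (0.72), S2A/S7A (1.86) and S7E (1.18), although Tf2 copies resemble each other and their signals cannot be told apart. The gene on the other side, cao2, was called higher in S7A (0.43), S2A/S7A (1.02) and S7E (0.58).

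The members of the chromosome interior had mixed neighbours. The pfl3 neighbour frp2 was called in the direction of pfl3 in S7A (-0.23) and S2A (0.76), but rose in S2A/S7A (0.65) where pfl3 stood at 0.05, and its other neighbour apl2 was higher in S2A (0.45), S2A/S7A (0.27) and S7E (0.34). Beside gsf2, SPCPB16A4.06c was called higher in all 4 mutants (0.35, 0.68, 0.64 and 0.86), and SPCC1795.12c was called only in S2A/S7A (-0.26). Beside pfl4, ubp5 was called higher in S2A (0.17), S2A/S7A (0.17) and S7E (0.28), and SPCC188.10c was called higher in S7A (0.54) and lower in S7E (-0.45). Beside pfl2, SPAPB18E9.05c, which held a repeated value on 6 arrays, was called only in S7A (-0.35), and SPAPB15E9.02c was called higher in S7A (0.36) and S2A/S7A (0.30).

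**Figure D3:**
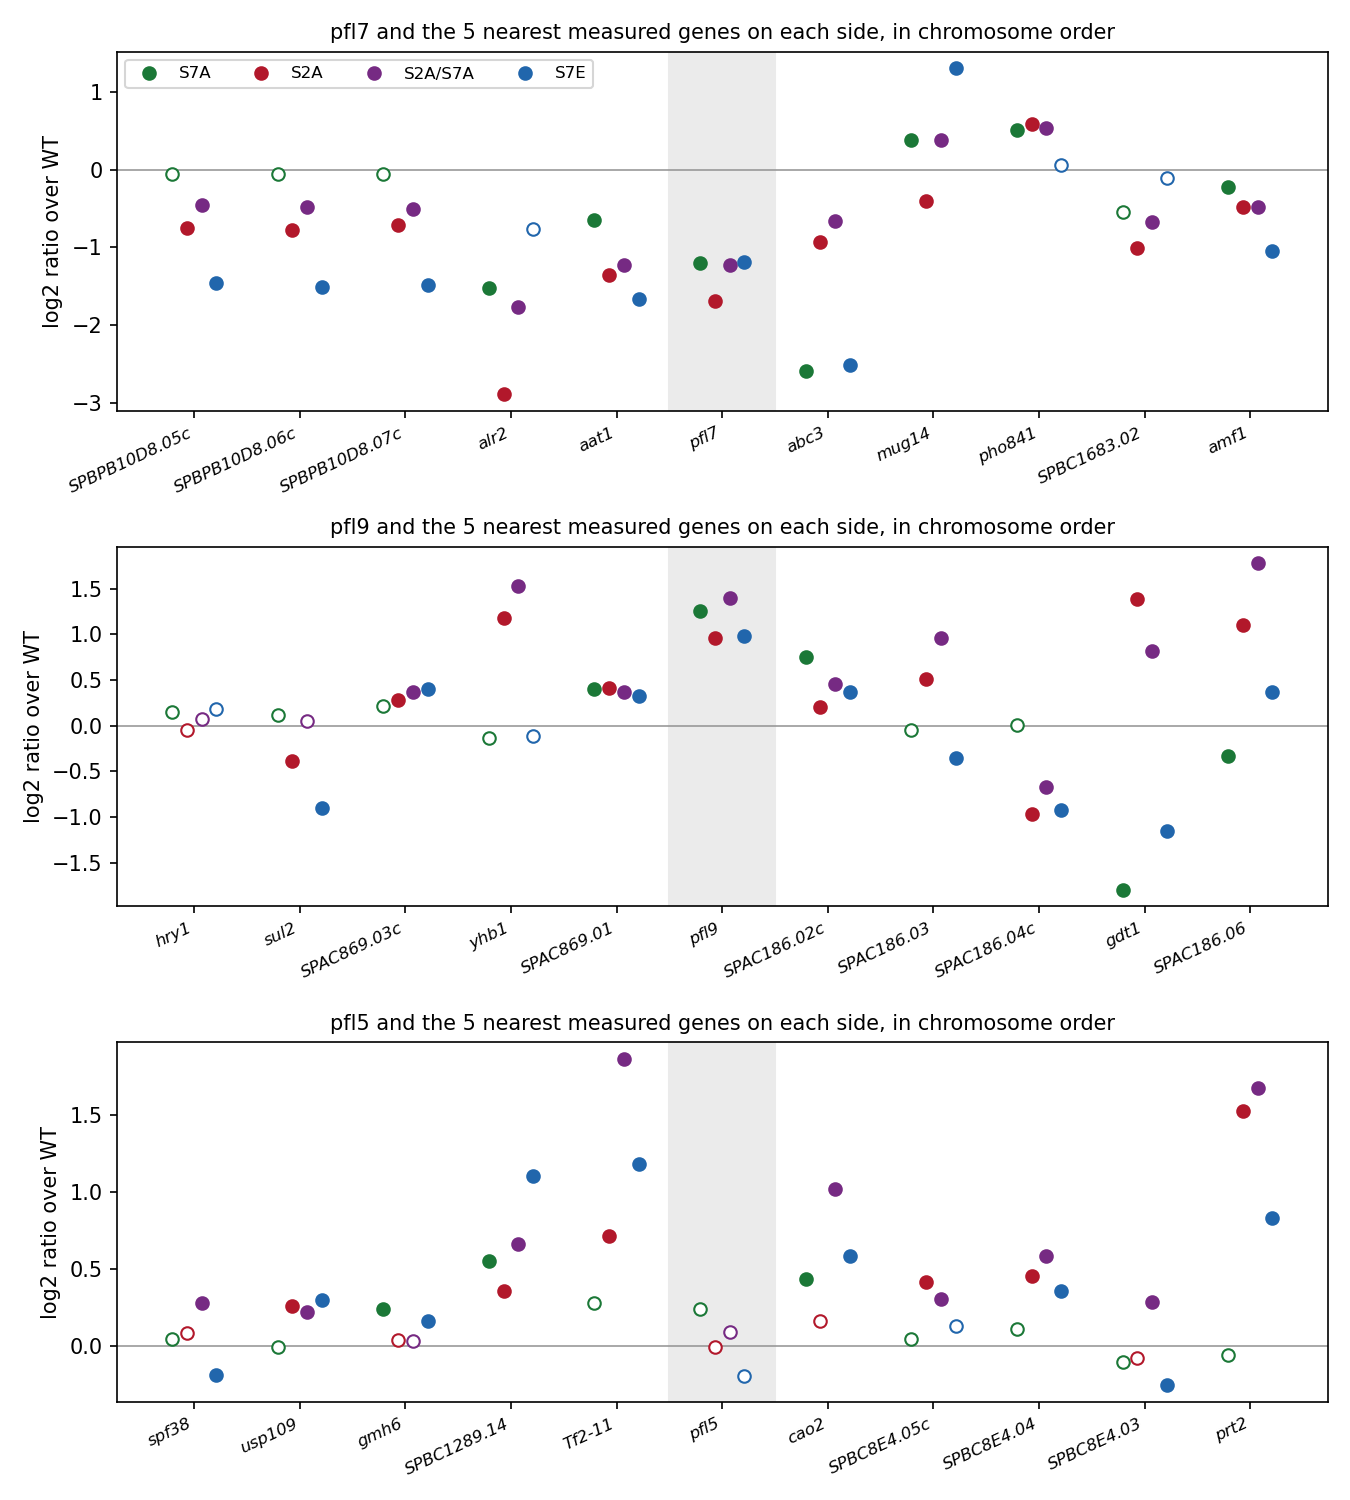
Log2 ratio estimates over WT (vertical axis) of pfl7, pfl9 and pfl5 (shaded, 1 panel each) and the 5 nearest measured genes on each side in reference gene order (horizontal axis), 1 colour per mutant, filled where called against WT. Most points around pfl7 lie below 0 with it, pfl9 stands above the gene next to it on either side in every mutant, and pfl5 lies below the genes next to it.

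Regulators of flocculation were listed from what is known in fission yeast, and 15 of 16 were measured. Of these, 6 were called higher and 1 lower in S7A, 8 and 4 in S2A, 9 and 3 in S2A/S7A, and 5 and 4 in S7E. Of all genes, 18.0% were called higher and 16.6% lower in S7A, 31.2% and 27.1% in S2A, 35.1% and 27.8% in S2A/S7A, and 33.5% and 27.6% in S7E. The medians of the 15 were 0.098, 0.15, 0.18 and 0.072 in that order.

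The mbx2 gene encodes a MADS-box transcription factor that activates flocculin genes. It read 0.45, 0.62, 0.54 and 0.37 on S7A, 0.41, 0.51, 0.58 and 0.42 on S2A, 0.78, 0.47, 0.37, 0.52 and 0.72 on S2A/S7A, and 0.24, 0.39 and 0.40 on S7E. All 16 values were above 0. By limma it was called higher in S7A (0.50, adjusted p = 1.02e-06), S2A (0.48, adjusted p = 4.29e-07), S2A/S7A (0.55, adjusted p = 2.19e-08) and S7E (0.31, adjusted p = 1.37e-04). In the fit to all 16 arrays gsf2 was not called in S7A or S7E, and pfl3 was called lower in both. A link between mbx2 RNA and the flocculin genes was not tested.

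The cbf12 gene, for a CSL-family factor that promotes adhesion, read 1.26, 1.38, 1.25 and 1.19 on S2A and 0.06, 0.20, -0.06 and 0.62 on S7A. It read 0.23, 0.04, 0.51, 0.49 and 0.42 on S2A/S7A and 0.48, 0.60 and 0.73 on S7E. Every S2A value lay above all values of the other mutants, as was the case for gsf2. The order below S2A differed: the S7E estimate was above that of S2A/S7A for cbf12 and below it for gsf2. The estimate was 1.27 in S2A, 0.34 in S2A/S7A and 0.60 in S7E, all called, and 0.21 in S7A, which was not.

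The lkh1 gene, for a LAMMER kinase whose loss gives flocculation in this species, read 0.38, 0.28, 0.32 and 0.94 on S7A and -0.43, -0.43, -0.50 and -0.47 on S2A. It read -0.34, -0.25, -0.08, -0.35 and -0.23 on S2A/S7A and -0.72, -0.37 and -0.45 on S7E. The S7A values were all above 0 and those of the other mutants all below it, and the estimates were called in each mutant, at 0.48, -0.46, -0.24 and -0.50.

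Among the other listed regulators, tup12, a Tup1-type co-repressor gene, was called higher in all 4 mutants, at 0.30, 0.32, 0.43 and 0.28, and tup11, its relative, in S2A/S7A (0.18) and S7E (0.32). The gene yox1, for a repressor that acts with the MBF factor, was called lower in S7A (-0.23) and higher in S2A (0.48), S2A/S7A (0.35) and S7E (0.31). Within the Mediator kinase module, the kinase gene srb10 was called lower in S2A (-0.33), S2A/S7A (-0.40) and S7E (-0.29), its cyclin gene srb11 in the same 3 mutants (-0.32, -0.53 and -0.21), and srb8, for another subunit, was higher in S7A (0.27), S2A (0.20) and S2A/S7A (0.24). The adhesion factor gene adn2 was called higher in S7A (0.23) and S2A/S7A (0.18).

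**Figure D4:**
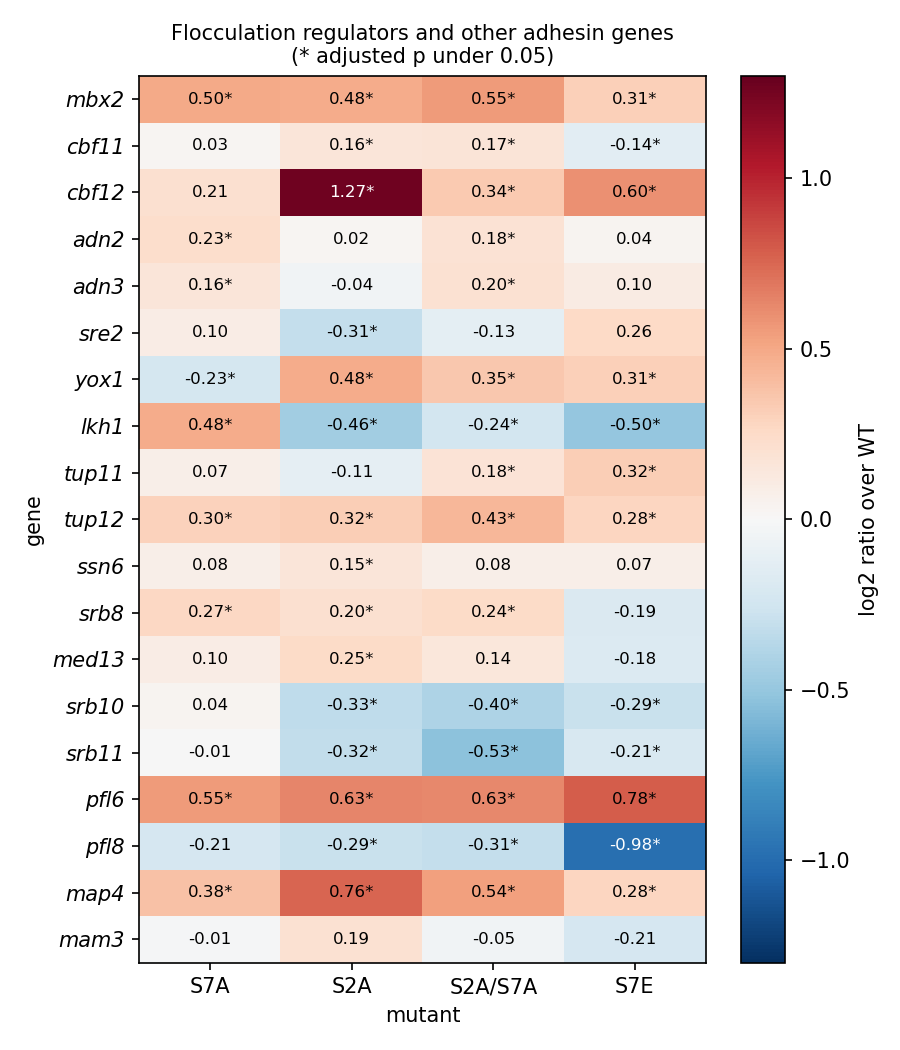
Log2 ratio estimates over WT (colour and printed value) of 15 listed regulators of flocculation and 4 other adhesin genes (rows) in the 4 mutants (columns), with a star where limma's adjusted p was under 0.05. The mbx2, tup12, pfl6 and map4 rows are above 0 and starred in every mutant, cbf12 has its highest value in S2A (1.27), and lkh1 is above 0 in S7A only.

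The other adhesin genes were pfl6, pfl8, map4 and mam3. The gene pfl6 was called higher in all 4 mutants, at 0.55 in S7A, 0.63 in S2A, 0.63 in S2A/S7A and 0.78 in S7E. The mating adhesin gene map4, used by P cells, was also called higher in all 4, at 0.38, 0.76, 0.54 and 0.28. The gene pfl8 was called lower in S2A (-0.29), S2A/S7A (-0.31) and S7E (-0.98), and stood at -0.21 in S7A without a call. The M-cell adhesin gene mam3 was called in none, at -0.01, 0.19, -0.05 and -0.21. Some of these values depend on the arrays that stood apart. On S2A replicates 1 to 4 mam3 read 0.56, 0.36, 0.25 and -0.40, and on S7A pfl8 read -0.32, -0.23, -0.47 and 0.16. On S7E map4 read -0.17, 0.53 and 0.57. With 1 array left out, 2 to 3 of the 4 genes were called in S7A, 2 to 4 in S2A and 2 to 3 in S7E. Of these 4 genes, 2 were called higher in each mutant, and 1 lower in each but S7A. Of all genes, 18.0%, 31.2%, 35.1% and 33.5% were called higher in S7A, S2A, S2A/S7A and S7E. The shares called lower were 16.6%, 27.1%, 27.8% and 27.6%. With 4 genes, these counts say little about the adhesin genes as a group.

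Genes for enzymes and proteins of the cell wall, to which flocculins attach, were called in both directions. Of 26 listed and measured, 6 were called higher and 3 lower in S7A, 12 and 6 in S2A, 10 and 10 in S2A/S7A, and 7 and 7 in S7E. Of all genes, 18.0% and 16.6% were called higher and lower in S7A, 31.2% and 27.1% in S2A, 35.1% and 27.8% in S2A/S7A, and 33.5% and 27.6% in S7E. The repeated values seen for pfl2 also occurred in gas1 (9 arrays), psu1 (12), ecm33 (9) and bgs4 (1), and gas1 is among the 12 called higher in S2A. Those furthest from 0 in S7A were gas4 (-1.01) and gas5 (0.86), for glucan-remodelling enzymes, meu10 (0.57) and the glucan synthase gene bgs2 (0.30). In S2A they were the septum glucanase gene eng1 (-1.14), agn2 (-0.96), gas2 (0.90) and bgs2 (0.84). In S2A/S7A they were eng1 (-1.27), the cell-separation glucanase gene agn1 (-0.96), exg1 (-0.73) and psu2 (0.73), and in S7E psu2 (1.99), eng1 (-1.83), agn1 (-1.22) and bgl2 (1.04). The exg1 values of S2A/S7A were split, at -0.21 and -0.15 on replicates 1 and 2 and -0.96, -1.23 and -1.01 on replicates 3 to 5.

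For each member called against WT, the 3 genes whose values were most like it over the arrays were found by Pearson correlation, which is a description here because the arrays fall into 4 mutant groups and share a WT reference. For pfl3 they were SPBC660.17c (0.970), osr1 (0.967) and SPCC663.08c (0.966), and within the family its nearest was gsf2 (0.88), each over 16 arrays. For gsf2 they were pho843 (0.957 over 15 arrays), jmj1 (0.944) and lsd90 (0.943). For pfl7 the highest was with alr2 (0.895), the second measured gene to its left, followed by SPBPB10D8.03 (0.867) and oxa102 (0.806). The alr2 gene stood at -1.52, -2.89 and -1.77 in S7A, S2A and S2A/S7A, all called, and at -0.77 in S7E without a call. For pfl9 they were otg2 (0.839), slm3 (0.834) and SPAC8E11.08c (0.819 over 15 arrays). Of these, otg2 stood at 1.31, 0.68, 1.23 and 0.94 in S7A, S2A, S2A/S7A and S7E. In the same order slm3 stood at 0.04, -0.20, -0.0027 and -0.28.

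The dye term passed the threshold for no member, its lowest adjusted p by limma being 0.249, for pfl2, which had an unadjusted p of 0.0175. As the arrays measured RNA from whole cultures, less RNA per cell and fewer cells expressing a gene cannot be told apart.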

How the data were processed

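Total RNA of mutant and WT was hybridised to 16 two-colour arrays, the mutant in Cy5 on 7 and in Cy3 on 9, per the labels. The deposited value is 1 log2 ratio per probe and array, whose base, direction and normalization are not stated. Array medians lay between -0.0265 and 0.0267, and arrays of opposite dye had already been turned 1 way. Each array had 13061 to 14918 probes with a value, and signal over background is not known. A gene value was the mean of its exon probes (or those of a non-coding RNA). A gene needed a value on 2 or more arrays in every group and was then fitted with limma 3.58.1 (R 4.3.3), lmFit and eBayes, with 4 group means and a dye term, Benjamini-Hochberg adjustment over 5163 genes, and a threshold of 0.05. The p-values measure the spread between separately grown replicates. Names, synonyms and gene order came from a RefSeq table (assembly ASM294v3), which matched 4894 of 5195 IDs by locus tag and 200 by synonym. It was used for no coordinates, and no sequence was used. Each member rests on 1 probe, so near-identical copies cannot be told apart. The members and gene lists were chosen with earlier results of these data known. The named genes were the members, the listed regulators (at most 6 called per mutant by size, with their calls in other mutants added after their values were seen), other pfl and mating adhesin genes, cell wall genes (at most 4 called per mutant), the nearest neighbours and the 3 most correlated genes. The test was checked on simulated data. Alternatives covered scaling, array weights, the dye term, repeated and missing values, a replicate block, single-mutant fits and leaving out arrays.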

Additional observations from a re-analysis of the deposited data

Results flagged for a closer look

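In S2A, replicate 4 stood apart from the other 3 arrays for a pair of members. For pfl3 it read -0.021, the lowest of 4, where the others read 0.80 to 0.87. For pfl7 it read -0.90, the highest of 4, where the others read -1.99 to -1.92. The test for a lone sample was run on 21 groups and found these 2, and chance finds about 1 in 20 groups. The same array had a low correlation with the other S2A arrays (0.689 on average), and its part in these values was not tested.

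The S2A/S7A double mutant differed from the sum of the single mutants, by the test of the difference itself, for gsf2 (-0.41), pfl7 (1.66) and pfl9 (-0.82). For each of the 3 the double mutant was closer to WT than the sum.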

How the results depend on the processing

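The 13 calls against WT kept their direction and side of the threshold in all 364 recomputed values. Over all 48 single-gene results, 1263 of 1320 values did so, 12 turned direction, 10 lost and 35 gained a call. The cause was not tested for any change below.

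Counts of members past the threshold moved with array weights, from 3 to 5 in S7A, from 2 to 6 for S2A against S7A, from 2 to 4 for S2A/S7A against S2A, from 1 to 2 for S7E against S7A (gsf2 and pfl9, while pfl5 lost its call at -0.25, adjusted p = 0.0746, limma) and from 2 to 4 for S7E against S2A. Against WT, array weights added calls of pfl4 (-0.15, limma adjusted p = 0.0134) and pfl5 (0.21, adjusted p = 0.0121) in S7A. They also added pfl2 (0.10, limma adjusted p = 0.0374) and pfl4 (0.13, adjusted p = 0.0354) in S2A, and gsf2 (0.22, adjusted p = 0.00440) in S7E. Counts that changed by a smaller factor are not all listed here. With the arrays of 1 mutant fitted alone, S7E went from 3 to 5. With 3 arrays left out, chosen after seeing the data, S2A against S7A gave 4 and S2A/S7A against S2A gave 5. S7E against S7A gave 2 with scaled arrays, 0 with the replicate block, and 0 to 2 without 1 array. In S7A, listed regulators went from 7 to 4 with the replicate block and 4 to 8 without 1 array, lowest without S7A replicate 2 or 4. Of the other adhesin genes 1, not 2, was counted in S7A with only genes measured on all arrays. That fit held 3 of them, as pfl6 had no value on S2A/S7A replicate 4, so no call was lost. Cell wall genes went from 9 to 14 with array weights and 5 to 11 without 1 array, lowest without S7A replicate 2.

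The values that turned were all near 0. For pfl2 in S7A they were -0.031 (array weights) and -0.044 (3 arrays left out), with -0.038 (without S7A replicate 4) to 0.089 without 1 array. For pfl2 in S2A/S7A it was 0.0062 (no dye term), with -0.031 to 0.015 (without S2A/S7A replicate 4) without 1 array. For pfl4 in S7A the range without 1 array was -0.20 to 0.0069 (without S7A replicate 3). For pfl5 in S2A it was 0.064 (replicate block), with -0.070 to 0.044 without 1 array, above 0 without S2A replicate 2 or 3. For pfl3 non-additivity it was 0.078 (scaled arrays), with -0.24 to 0.046 without 1 array, above 0 without S2A replicate 1 or 2.

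Deviations of same-numbered arrays of different mutants correlated at -0.226 to 0.419 (8 of 21 pairs over 0.1), and 4 of 16 arrays correlated best with their own number, so the numbers were not taken to pair the samples. With the replicate block the pfl9 departure from additivity was -0.67 (limma adjusted p = 0.0560). Signal over background and probe quality limit what the low values can show, and neither is known here.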
